A study of Mus musculus with 4 samples.

Results

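The genes described here are the DNA methyltransferases Dnmt1, Dnmt3a and Dnmt3b, the cofactors Dnmt3l and Uhrf1, and the TET enzymes Tet1, Tet2 and Tet3. They were taken as every probe set whose gene symbol in the platform annotation is exactly one of these 8 names. This gave 20 probe sets of 45037 that are not array controls, and 8 genes of 18193 named alone by a probe set. Of the 20 probe sets 19 were bright enough to be tested, and these cover 7 of the genes. The only probe set of Tet3 was not. RNA came from 4 samples of E14Tg2A.4, a feeder-independent subline of the mouse embryonic stem cell line E14Tg2a, which lacks functional Hprt. One group was given BMP-2, a bone morphogenetic protein and secreted ligand of the TGF-beta superfamily, at 25 ng/ml for 1 h. The other group was left untreated for as long. Each group has 2 arrays, and both groups share the parental line, so any trait of this line is common to all 4.

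Methylation of cytosine in CpG dinucleotides is copied to the new DNA strand at replication by DNMT1, which UHRF1 brings to hemimethylated sites. DNMT3A and DNMT3B place new methylation, helped by DNMT3L, a relative that has no catalytic activity of its own. TET enzymes oxidise 5-methylcytosine to 5-hydroxymethylcytosine and beyond, a route to its removal. Mouse embryonic stem cells are known for tolerating the loss of DNA methylation, for expressing Dnmt3b and Dnmt3l, and for using Tet1 and Tet2 rather than Tet3.

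The arrays were one-colour Affymetrix arrays, and a value is a MAS5 signal on a linear scale. Median signals were 82.5 and 81.8 on untreated and treated replicate 1, and 94.6 and 94.9 on untreated and treated replicate 2. Precision is limited by the small number of arrays and, for some probe sets, by dim signals. The stem cell markers fixed for this check (Pou5f1, Nanog, Sox2 and others) were above a signal of 53.0, the lower limit for testing, for 10 of 10 genes, with summed signals of 99728 to 105891 per array. Of 9 fibroblast feeder markers on the arrays 2 were above it, Thy1 and Col1a2, and the sums were 569 to 693. Of 7 markers of primed epiblast and early lineages 6 were above it (sums 3309 to 3488). Most of these sums came from Otx2 (2349 to 2565), while Pax6 read 380 to 405, and Fgf5, Gata6, Sox17 and Eomes read 68.8 to 251. Of 4 germ cell markers all 4 were above the limit (sums 2083 to 2402). No marker of these lists passed the test between groups. On untreated replicate 2, the 18S ribosomal RNA controls read 3.94 to 6.11 times their highest value elsewhere, and a member or list gene whose difference turns or moves by over 1.5 times without this array is given both ways below. The labels do not state whether replicate arrays stem from separate cultures. The p-values therefore reflect variation among these 4 samples only, and that variation may be technical.

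RefSeq (GRCm38.p6) lists windows of 300 bases around annotated transcription starts, 250 before and 50 after, for all 8 genes, 15 windows in all. Several genes have more than 1 start, and DNMT3A is known to be made as a long form and as a shorter form from an internal promoter, which is the main form in embryonic stem cells. The first and the most downstream window of Dnmt3a and the first of Dnmt3l are shown as examples of a CpG-rich start, an internal start of the same gene and a CpG-poorer start of its cofactor. Capitals mark CpG dinucleotides, the substrate of the enzymes described here.
Dnmt3a window 1, chr12:3806730-3807029, plus strand: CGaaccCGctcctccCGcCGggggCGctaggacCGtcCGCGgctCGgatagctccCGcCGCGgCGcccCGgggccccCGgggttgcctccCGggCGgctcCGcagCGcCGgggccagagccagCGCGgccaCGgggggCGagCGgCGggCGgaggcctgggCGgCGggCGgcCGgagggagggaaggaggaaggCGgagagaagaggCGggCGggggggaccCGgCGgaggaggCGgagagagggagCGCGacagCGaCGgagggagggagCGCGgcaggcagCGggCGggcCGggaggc
Dnmt3a window 3, chr12:3891494-3891793, plus strand: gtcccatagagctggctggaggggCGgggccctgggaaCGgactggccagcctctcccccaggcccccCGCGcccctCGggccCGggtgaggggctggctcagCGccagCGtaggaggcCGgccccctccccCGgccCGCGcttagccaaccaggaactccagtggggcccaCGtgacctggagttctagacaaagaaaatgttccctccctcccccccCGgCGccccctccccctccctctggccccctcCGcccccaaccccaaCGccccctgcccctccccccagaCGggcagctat
Dnmt3l window 1, chr10:78042037-78042336, plus strand: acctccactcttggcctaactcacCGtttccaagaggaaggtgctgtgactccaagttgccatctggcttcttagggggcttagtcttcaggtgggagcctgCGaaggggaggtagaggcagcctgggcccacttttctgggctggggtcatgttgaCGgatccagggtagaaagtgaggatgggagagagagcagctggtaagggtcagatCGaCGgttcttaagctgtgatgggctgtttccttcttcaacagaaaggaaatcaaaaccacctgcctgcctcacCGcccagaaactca

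The first Dnmt3a window holds 46 CpGs, more than 98.4% of the 32851 windows in the table, and the downstream one holds 18, more than 70.3% of them. The second Dnmt3a window, which overlaps the first, holds 47. The 3 Dnmt3l windows hold 6, 4 and 3 CpGs, against a median of 7 over all windows. Tet2 has the most CpG-rich window of the 8 genes, with 57 CpGs, and Tet1 and Tet3 have 17 and 22. Dnmt3b has 30. Dnmt1 has windows with 2, 12 and 33 CpGs, and Uhrf1 has windows with 12 and 33. The letters GGCGCC, a palindrome found in SMAD-bound elements of BMP targets, occur in 5 of the 15 windows (1 of Dnmt1, the 3 of Dnmt3a and the 1 of Dnmt3b) and in 11.9% of all windows. The 11.9% is not matched for base composition, and the 5 windows are 57.0% to 82.3% G or C. A match describes these letters and is no measured binding site. The arrays do not report from which start a transcript came.

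Signals of different probe sets depend on how well their probes bind, so treatment differences set a probe set against itself on the other arrays. As a guide to brightness, the share of all probe sets with a lower untreated signal is given, and this is no order of transcript amounts. Every brightest probe set of the 7 tested genes lay above at least 83.2% of probe sets in untreated cells. The plot of member signals by array shows all 20.

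**Figure D1:**
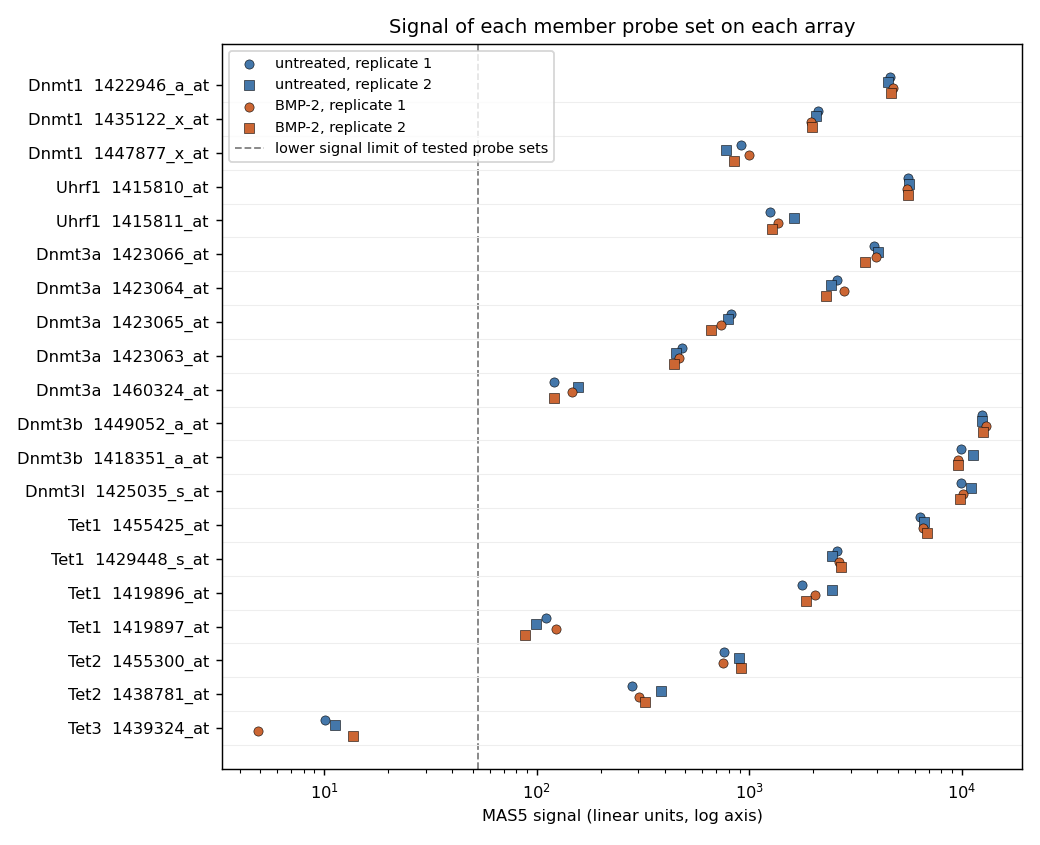
MAS5 signal (horizontal log axis, linear units) of the 20 probe sets of the 8 genes on each array, blue for untreated and orange for BMP-2, circles for replicate 1 and squares for replicate 2, with the lower signal limit of 53.0 dashed. The 4 arrays lie within 1.40-fold of one another for each tested probe set, and Tet3 lies below the limit on all 4 arrays.

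Treated cells were set against untreated cells to ask whether transcripts of these genes differed after 1 h of BMP-2. Differences are treated minus untreated means of log2 signals, with errors by limma, a linear model that shares the spread over probe sets. None of the 19 tested probe sets passed by limma at an adjusted p of 0.05 over all tested probe sets (each adjusted p = 1.00), and 0 of 19 had an unadjusted p under 0.05, the smallest being 0.104. Over all 27022 tested probe sets 0.0185% passed, and 3.07% had an unadjusted p under 0.05. The known early BMP targets Id1, Id2 and Id3 rose 3.14-fold, 3.38-fold and 3.32-fold in the same fit (limma adjusted p 2.0e-05, 3.6e-05 and 3.6e-05). These 3 calls rest on the intensity trend of the fit, since without it 0 probe sets passed and the limma adjusted p was 0.859 for each of the 3. Among the members the largest difference was 1.15-fold and the median 1.04-fold, in either direction. The 95% interval of the difference lay within 1.5-fold either way for 17 of the 19, against 54.2% of all tested probe sets, and within 1.2-fold for 6 of 19, against 12.2%. The members are brighter than most, with a median of 10.98 for their mean log2 signal against 8.14 over all tested, and bright probe sets have narrower intervals on these arrays. The median log2 difference was -0.04 over the members and 0.01 over all tested probe sets.

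**Figure D2:**
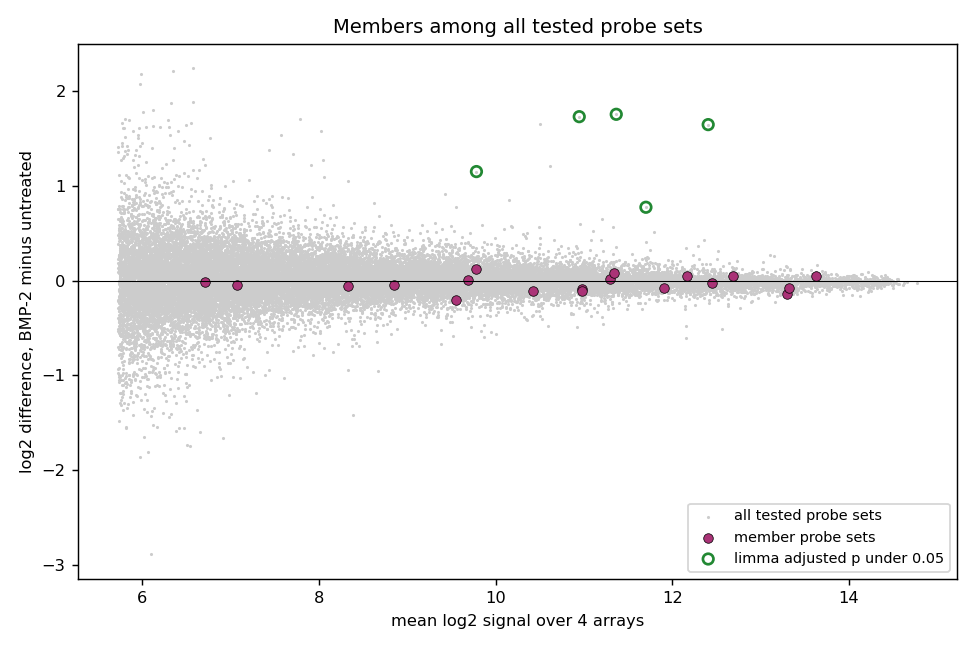
Log2 difference (BMP-2 minus untreated, vertical axis) against mean log2 signal over 4 arrays (horizontal axis) for all 27022 tested probe sets in grey, the 19 member probe sets in purple, and the 5 probe sets with a limma adjusted p under 0.05 circled in green. The members lie between -0.21 and 0.12 log2, inside the grey cloud, and none is circled.

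Dnmt1, the maintenance methyltransferase, has 3 probe sets. The brightest (1422946_a_at, above 96.0% of probe sets) read 4577 and 4501 on untreated replicates 1 and 2, and 4747 and 4638 on treated replicates 1 and 2. Both treated arrays lay above both untreated ones, by a mean of 1.03-fold (95% interval 0.921 to 1.16). The second (1435122_x_at) read 2104 and 2058 untreated and 1948 and 1981 treated. Here both treated arrays lay below both untreated ones, 1.06-fold lower on average (interval of the fold 0.823 to 1.08), so 2 probe sets of 1 gene separated the groups in opposite directions. Such separation, in either direction, was found for 28.4% of all tested probe sets. The third (1447877_x_at) read 914 and 781 untreated and 994 and 848 treated, with overlapping groups and replicate 2 the lower array in each. Its log2 difference was 0.12, and 0.01 without untreated replicate 2. By name the _x_at probe sets may also bind transcripts of other genes.

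Uhrf1, the reader of hemimethylated CpG that recruits DNMT1, has 2 probe sets. The brighter (1415810_at, above 96.9% of probe sets) read 5606 and 5646 untreated and 5505 and 5575 treated, all 4 arrays within a narrow band. The treated arrays were both lower, by 1.02-fold, with an interval of 0.881 to 1.10 for the fold. The dimmer (1415811_at) read 1248 and 1626 untreated and 1371 and 1281 treated, and untreated replicate 2 was the highest of the 4. Its log2 difference was -0.10 ± 0.13 (SE), and it was 0.09 without untreated replicate 2 and -0.30 without untreated replicate 1, so this array sets its direction.

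Among the de novo genes, Dnmt3a has 5 probe sets. The brightest (1423066_at, above 95.4% of probe sets) read 3867 and 4021 untreated and 3945 and 3521 treated, with treated replicate 2 the lowest and the groups overlapping (log2 difference -0.08 ± 0.09 SE, and -0.05 without untreated replicate 2). The next (1423064_at) read 2590 and 2412 untreated and 2777 and 2305 treated, where the treated arrays are both the highest and the lowest value. These 2 probe sets show no separation of the groups. A dimmer one (1423065_at) read 819 and 791 untreated and 739 and 659 treated, so both treated arrays were lower. This was the largest difference of all members, 1.15-fold lower, with an interval of 0.720 to 1.04 for the fold (log2 difference -0.21 ± 0.12 SE, limma adjusted p = 1.00), and it ran from -0.29 to -0.12 log2 when an array was left out. The last pair overlapped between groups, with 485 and 450 untreated and 466 and 442 treated for 1423063_at, and 121 and 156 untreated and 146 and 120 treated for 1460324_at. Of the 5 log2 differences 4 were below 0. Without untreated replicate 2 the log2 differences of 1423064_at, 1423063_at and 1460324_at went from 0.02, -0.04 and -0.05 to -0.03, -0.09 and 0.14.

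Dnmt3b, the main de novo enzyme of the early embryo, has 2 bright probe sets. The first (1449052_a_at, above 99.0% of probe sets) read 12400 and 12418 untreated and 13008 and 12639 treated, with both treated arrays higher by 1.03-fold on average (interval 0.937 to 1.14). The second (1418351_a_at, above 98.7%) read 9900 and 11270 untreated and 9629 and 9572 treated, with both treated arrays lower by 1.10-fold on average (interval 0.807 to 1.02). The log2 difference of the second was -0.14, and it was -0.04 without untreated replicate 2 and -0.23 without untreated replicate 1, so its size depends on which untreated array is kept. On these 4 arrays the groups did not overlap on either probe set, as for 28.4% of all tested probe sets, and the directions were opposite. Dnmt3l, the cofactor without catalytic activity, has 1 probe set (1425035_s_at, above 98.7%). It read 9942 and 11046 untreated and 10152 and 9767 treated, with overlap. Its log2 difference was -0.07 ± 0.07 (SE) and 0.00 without untreated replicate 2, the highest array. By name an _s_at probe set may bind transcripts of more than 1 gene.

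Tet1, the TET enzyme best known from embryonic stem cells, has 4 probe sets. The brightest (1455425_at, above 97.3% of probe sets) read 6390 and 6623 untreated and 6579 and 6869 treated, a difference of 1.03-fold with an interval of 0.925 to 1.15 and with overlap (0.05 log2, and 0.07 without untreated replicate 2). Another (1429448_s_at) read 2583 and 2459 untreated and 2634 and 2702 treated, with both treated arrays higher by 1.06-fold (0.08 log2, and 0.05 without untreated replicate 2). The third (1419896_at) read 1777 and 2453 untreated and 2033 and 1857 treated, so the untreated arrays enclosed the treated ones. Its log2 difference of -0.10 ± 0.14 (SE) became 0.13 without untreated replicate 2 and -0.34 without untreated replicate 1. The dimmest (1419897_at) read 111 and 98.8 untreated and 123 and 88.0 treated, and its interval of 0.640 to 1.54 for the fold is the widest of all members. Its log2 difference was -0.01, and -0.09 without untreated replicate 2.

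Tet2, which like TET1 acts on 5-methylcytosine but lacks a CXXC domain, has 2 probe sets. The brighter (1455300_at, above 83.2% of probe sets) read 762 and 892 untreated and 753 and 910 treated, so replicate 2 was the higher array in both groups and the treatment difference was 0.01 log2. The dimmer (1438781_at) read 280 and 383 untreated and 304 and 324 treated, with the untreated arrays enclosing the treated ones. Without untreated replicate 2 the log2 differences of the brighter and the dimmer went from 0.01 and -0.06 to 0.12 and 0.17. Tet3, known from the zygote and from neural tissue, read 10.0 and 11.3 untreated and 4.88 and 13.7 treated on its single probe set (1439324_at). These signals are below the limit of 53.0 and brighter than only 13.4% of probe sets, so no fold is given. A low signal on 1 probe set does not show that the transcript is absent.

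**Figure D3:**
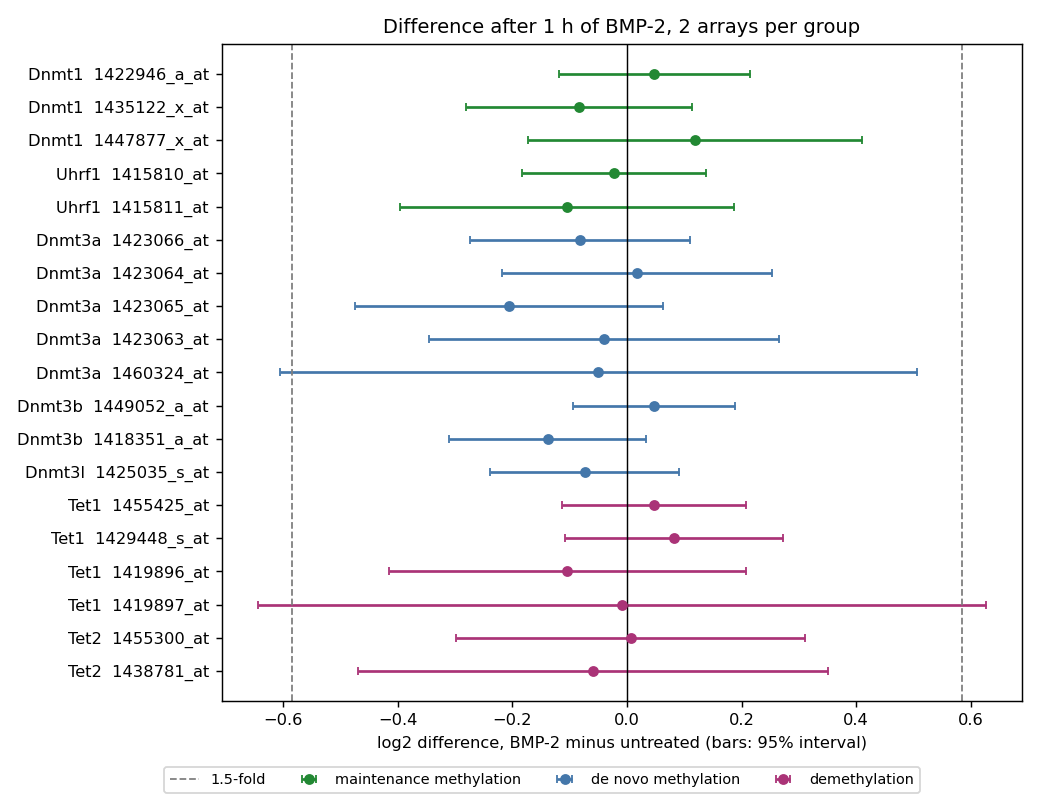
Log2 difference (BMP-2 minus untreated) with its 95% interval by limma for the 19 tested probe sets, coloured by role, with dashed lines at 1.5-fold. All 19 intervals include 0, and 17 lie inside the dashed lines; those of Dnmt3a 1460324_at and Tet1 1419897_at reach past them.

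By role, 2 of 5 maintenance probe sets were higher and 3 lower, 2 of 8 de novo probe sets were higher and 6 lower, and 3 of 6 TET probe sets were higher and 3 lower. The medians of the log2 difference were -0.02, -0.06 and 0.00. Over the 19 probe sets 7 were higher and 12 lower, where 52.2% of all tested probe sets were higher and 47.8% lower. The 2 groups of signals were fully separated for 7 of 19, or 36.8%, against 28.4% of all tested probe sets. Of these 3 were higher (15.9% of all tested) and 4 lower (12.5% of all tested). Probe sets of a gene are not independent, and these counts are a description. With 2 arrays a group, a permutation of labels cannot give a p below 0.333 for a single probe set.

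The arrays did not share the extremes evenly. Untreated replicate 2 was the highest of the 4 arrays for 8 of the 19 probe sets (42.1%, against 31.7% of all tested), and treated replicate 2 was the lowest for 8 (42.1%, against 20.4%). The part of untreated replicate 2 and its 18S signal in these counts was not tested. The SD between arrays of a group had a median of 0.09 log2 over the members and 0.15 over all tested probe sets. The log2 difference kept its sign for 9 of 19 probe sets in each fit without 1 array and turned for the other 10. Without untreated replicate 2 it turned for 6, without treated replicate 2 for 4, without untreated replicate 1 for 3, and without treated replicate 1 for 1.

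The probe sets of a gene can report different transcript forms, and their disagreement was tested directly. For each gene the log2 ratio of its brightest tested probe set to each other one was compared between groups, over 10007 such pairs of all genes. Such a ratio depends on probe binding, and what was compared is its change between groups, not its level. Of the 12 member pairs 0 passed by limma at an adjusted p of 0.05, as did 0% of all pairs, and 1 had an unadjusted p under 0.05 (8.33%, against 2.95% of all pairs).

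That pair is the one of Dnmt3b. The log2 ratio of 1449052_a_at to 1418351_a_at was 0.32 and 0.14 on the untreated arrays and 0.43 and 0.40 on the treated ones. Both treated ratios were higher, and the lowest ratio was that of untreated replicate 2. The difference was 0.19 log2 with an interval of 0.01 to 0.36 (limma adjusted p = 1.00), and it was 0.09 without untreated replicate 2 and 0.28 without untreated replicate 1. Its unadjusted limma p of 0.0428 depended on the processing. It was 0.0676 with quantile normalization, 0.0727 without the signal filter and 0.293 without the intensity trend. With a replicate block it was 0.019, and with median centring, a pseudocount or a filter at the 60th percentile it was 0.0411 to 0.0428. For Dnmt1 the ratio of 1422946_a_at to 1435122_x_at was 1.12 and 1.13 log2 untreated and 1.28 and 1.23 treated, again without overlap, and the difference was 0.13 log2 (interval -0.12 to 0.38). The other 10 differences ran from -0.10 to 0.15 log2. Without untreated replicate 2 the Dnmt1 value stayed at 0.13, and the other 10 ran from -0.19 to 0.18, with 6 of them on the other side of 0. The log2 differences of the members of a pair had opposite signs in 6 of 12 pairs (50%), against 45.3% of all pairs.

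**Figure D4:**
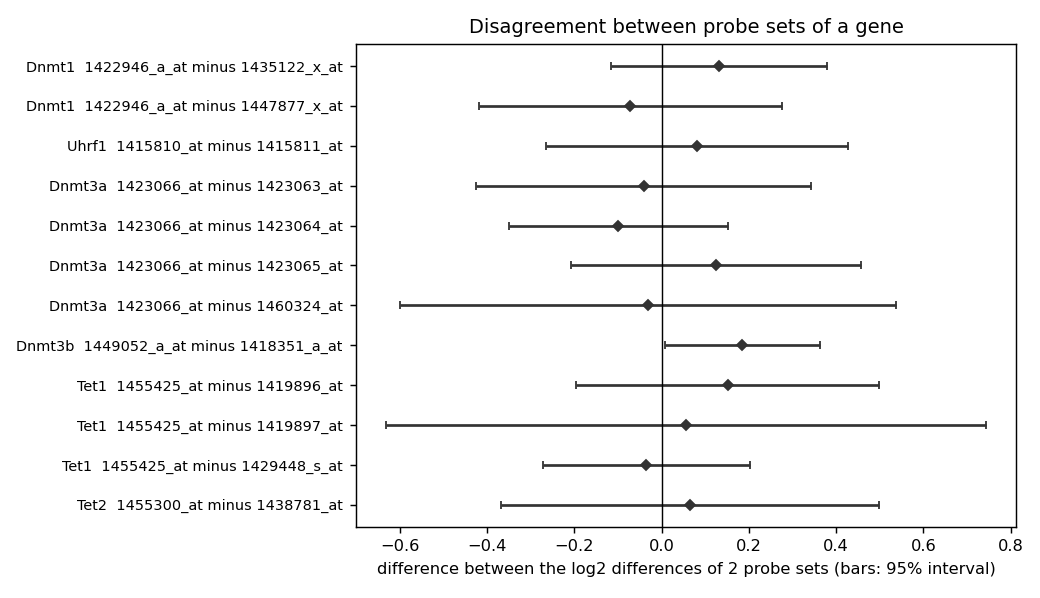
Difference between the log2 differences (BMP-2 minus untreated) of the brightest probe set of a gene and each other one, with its 95% interval by limma, for the 12 member pairs. In the main fit, shown here, the interval of the Dnmt3b pair (0.01 to 0.36) excludes 0 before adjustment and the other 11 include 0. The pairs with Tet1 1419897_at and Dnmt3a 1460324_at have the widest intervals.

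Other genes of DNA methylation and demethylation were read from 7 lists. Of 93 genes tested on their brightest probe set 0 passed by limma, 4 had an unadjusted p under 0.05 (4.30%, against 3.21% of all genes tested), and groups did not overlap for 22 (23.7%, against 28.8%). The median log2 difference of all genes was 0.01. For each list below, the 3 genes with the smallest p are named with their values, and none of them passed (limma adjusted p = 1.00 for each). For the genes of these lists, fits with 1 array left out are given as effect sizes only, since 1 group then has a single array.

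Readers of methylated DNA and cofactors had 11 of 22 tested genes higher and 11 lower, with a median of 0.00 log2. Mbd4, a glycosylase with a methyl-CpG-binding domain, read 274 ± 37.1 (SD, n = 2) untreated and 361 ± 51.4 treated (0.40 log2). Zbtb4 and Zbtb33, zinc finger proteins that bind methylated DNA, differed by -0.86 and 0.18 log2, with Zbtb4 at 45.4 on treated replicate 1 and 120 to 146 on the other arrays. The Zbtb4 difference was -0.16 log2 without treated replicate 1. It was -1.56 without treated replicate 2, where treated replicate 1 alone stands for the treated group. That of Zbtb33 was 0.12 without untreated replicate 2. Repair genes that follow oxidation of the base had 4 of 10 higher and 5 lower, with Parp1 (-0.09 log2), the glycosylase Neil3 (-0.25) and the endonuclease Apex1 (-0.04). Regulators of TET activity had 5 of 9 higher and 4 lower. Cxxc5, a CXXC domain protein known to act on Tet2 and as a BMP target in neural cells, read 1489 ± 95.1 untreated and 1816 ± 229 treated (0.28 log2, interval 0.03 to 0.53). The size of the Cxxc5 difference depended on the treated array kept, at 0.15 log2 without treated replicate 1 and 0.41 without treated replicate 2. Sin3a, a co-repressor that binds TET1, differed by -0.10 and D2hgdh by 0.11 log2. Without untreated replicate 2 the values were 0.02 for Parp1, -0.03 for Neil3, -0.09 for Apex1, -0.04 for Sin3a and 0.26 for D2hgdh.

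Genes of the methyl donor cycle, which supplies S-adenosylmethionine, had 6 of 11 higher and 5 lower, with Mthfd1 at -0.11, Ahcyl1 at 0.10 and the methionine synthase gene Mtr at 0.11 log2. Mthfd1 was at -0.22 and Mtr at 0.27 without untreated replicate 2. Regulators of Dnmt3 genes and of germline gene silencing had 5 of 10 higher and 5 lower. Max, the partner of MYC and MGA, read 573 ± 78.0 untreated and 771 ± 20.8 treated (0.44 log2, interval 0.14 to 0.74), and L3mbtl2 and Tfap2c differed by 0.13 and 0.10 log2. Germline genes listed as targets of silencing by promoter methylation had 4 of 12 higher and 8 lower, with a median of -0.07 log2. The list name does not mean that they were silent here. Of 15 on the arrays 12 were bright enough to be tested, and Tex19.1 read 3913 to 4272 over the 4 arrays. Hormad1 was at -0.23, Tex19.1 at -0.08 and Slc25a31 at -0.14 log2, which became -0.07, -0.03 and -0.06 without untreated replicate 2. Imprinted genes, whose expression follows methylation set in the germline, had 15 of 19 higher and 4 lower, with a median of 0.08 log2. Over all tested probe sets 52.2% were higher. No list was tested as a set, its genes need not be independent, and these counts are a description. Igf2, a growth factor, read 202 ± 21.5 untreated and 279 ± 31.3 treated (0.46 log2, interval 0.05 to 0.88). The noncoding RNA Rian differed by 0.45 log2, with untreated signals of 1111 and 681 on replicates 1 and 2 and treated signals of 1232 and 1152. The Rian difference was 0.10 without untreated replicate 2. It was 0.81 without untreated replicate 1, where untreated replicate 2 alone stands for the untreated group. Peg3 differed by 0.17.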

How the data were processed

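The authors deposited 1 intensity per probe set and array, on a linear scale. It was computed with MAS5 (version not stated), per the submitters' processing notes. Biotin-labelled cRNA was made from total RNA, per the labels' protocols. The deposited intensities of every array have a 2%-trimmed mean of 500, which shows that arrays were already scaled, so no further normalization was applied (array medians within 0.21 log2). Intensities were log2-transformed without a pseudocount. Of 45101 probe sets, 64 controls were left out, and 27022 with a mean above the 40th percentile (a signal of 53.0) were tested two-sided in R 4.3.3 by limma 3.58.1, using lmFit and then eBayes with an intensity trend. Adjustment was by Benjamini-Hochberg over all of them. With 2 residual against 7.98 prior degrees of freedom, the error of a probe set comes mainly from others of similar brightness. Probe set pairs were fitted alike over 10007 pairs. Folds are back-transformed log2 differences, and intervals are at 95%.

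Samples were grouped by title. The members, lists and interval bounds of 1.2-fold and 1.5-fold were chosen with earlier results of these data known. All member probe sets are named, and from each list the 3 genes with the smallest p. Genes with a like pattern were not ranked, since 4 arrays are too few. The alternatives tried were median centring (on all probe sets and, added after seeing the data, on the tested ones), quantile normalization, a pseudocount of 25.4, removing the filter or raising it to the 60th percentile, a fit without the trend, a block for replicate number, each array left out, an adjusted p under 0.1, and averaging the probe sets of each gene. The code was tested on simulated data.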

Additional observations from a re-analysis of the deposited data

How the results depend on the processing

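No member probe set passed in any alternative (0 in each, also at an adjusted p under 0.1), and no difference between member pairs passed either. Over all tested probe sets the 5 that passed (5 higher) became 11 at an adjusted p under 0.1 (10 higher), 8 with the filter at the 60th percentile (8 higher), 0 without the intensity trend (1023 at an unadjusted p under 0.05), and 11 with the replicate block (10 higher). Median centring on all probe sets gave 119 (74 higher, 45 lower), in a fit whose prior degrees of freedom were infinite, while centring on the tested probe sets, chosen after seeing the data, gave 17 (12 higher, 5 lower). Without 1 array the count was 16 to 141: 38 without untreated replicate 1 (27 higher, 11 lower), 16 without untreated replicate 2 (14 higher, 2 lower), 93 without treated replicate 1 (58 higher, 35 lower) and 141 without treated replicate 2 (35 higher, 106 lower). The prior degrees of freedom were infinite in the last 2 of these fits too. Over all pairs the count of 0 (295 at an unadjusted p under 0.05) became 0 to 7 without 1 array. The cause of these moves was not tested. Directions of small member differences depended on single arrays. Without 1 array the log2 differences ran from -0.0945 to 0.0131 for Dnmt3a 1423063_at, -0.12 to 0.15 for Dnmt3a 1423064_at, -0.16 to 0.0005 for Dnmt3a 1423066_at, -0.24 to 0.14 for Dnmt3a 1460324_at, -0.15 to 0.0022 for Dnmt3l 1425035_s_at, -0.34 to 0.13 for Tet1 1419896_at, -0.25 to 0.23 for Tet1 1419897_at, -0.28 to 0.17 for Tet2 1438781_at, -0.13 to 0.14 for Tet2 1455300_at, -0.30 to 0.0869 for Uhrf1 1415811_at. For pairs they ran from -0.17 to 0.0303 for Dnmt1 1422946_a_at against 1447877_x_at, -0.12 to 0.0411 for Dnmt3a 1423066_at against 1423063_at, -0.19 to 0.13 for Dnmt3a 1423066_at against 1460324_at, -0.0554 to 0.36 for Tet1 1455425_at against 1419896_at, -0.22 to 0.33 for Tet1 1455425_at against 1419897_at, -0.0963 to 0.0264 for Tet1 1455425_at against 1429448_s_at, -0.0455 to 0.18 for Tet2 1455300_at against 1438781_at, -0.10 to 0.27 for Uhrf1 1415810_at against 1415811_at. Quantile normalization turned Tet2 1455300_at to -0.0143 log2 and the Dnmt3a pair 1423066_at and 1460324_at to 0.0012, centring on the tested probe sets turned Dnmt3a 1423064_at to -0.0136 and Tet2 1455300_at to -0.0246, and averaging the probe sets of each gene turned Dnmt3b to -0.0453 and Tet2 to -0.0264. The replicate block left all member calls as they were. With it 1452 of all tested probe sets had an unadjusted p under 0.05 by limma, against 829 in the main fit. The labels do not say that equal numbers mark a shared batch. Array medians were closer between equal-numbered arrays than within a group, and the deviations of equal-numbered arrays correlated at 0.152 over 27022 probe sets. Whether equal-numbered arrays share a batch was not tested. The number of arrays and dim signals limit these values.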
